A study of Mus musculus with 8 samples.

Results

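The sodium pump and potassium channel genes described here are 9 mouse genes taken from 21887 protein-coding genes, chosen by name for their roles. They are the pump's beta subunit genes Atp1b1 and Atp1b3, the FXYD regulator genes Fxyd2, Fxyd4 and Fxyd5, the inward rectifier channel genes Kcnj1, Kcnj10 and Kcnj16, and the large-conductance channel gene Kcnma1. Each gene was read over its RefSeq span plus 10 kb on either side. The values are peaks of H3K27ac, acetylation of histone H3 at lysine 27, from chromatin immunoprecipitation and sequencing (ChIP-seq). The cells were mpkCCD cells, a mouse line of the cortical collecting duct used here as 1 clone on permeable supports. One group received 0.1 nM dDAVP, a vasopressin analogue selective for the V2 receptor, and the other its vehicle, for 24 h in both cases. All cells had first spent 24 h without serum and hormones, so that the vehicle cells lacked these as well. In each of 2 experiments there was 1 immunoprecipitated library and 1 input library per treatment, which gives 2 peak lists for dDAVP and 2 for vehicle.

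The sodium pump sits in the basolateral membrane of kidney tubule cells and moves sodium out of the cell and potassium in, at the cost of ATP. Its catalytic subunit needs a beta subunit to reach the membrane, and the small FXYD proteins set its affinity for ions. In the collecting duct the pump drives sodium reabsorption, while potassium channels of the apical membrane let potassium pass to the urine and those of the basolateral membrane recycle it. Vasopressin acts on principal cells through the V2 receptor and cyclic AMP. H3K27ac marks active promoters and enhancers.

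The promoter sequences of 6 of these genes show the range of DNA at starts with and without a peak close by. They are the 250 bases upstream of the listed start, from RefSeq on build GRCm38.p6 (mm10 coordinates), written 5′ to 3′ along the gene. Capitals mark every match to 9 short motifs, which in these sequences are the GC box GGGCGG and the CCAAT box, on either strand. Starts of the first 4 lay within 1 kb of a peak in all 4 lists and those of the last 2 in none. For Atp1b3 and Kcnj16 the most upstream listed start is shown.
Atp1b1 (chr1:164458356-164458605, minus strand): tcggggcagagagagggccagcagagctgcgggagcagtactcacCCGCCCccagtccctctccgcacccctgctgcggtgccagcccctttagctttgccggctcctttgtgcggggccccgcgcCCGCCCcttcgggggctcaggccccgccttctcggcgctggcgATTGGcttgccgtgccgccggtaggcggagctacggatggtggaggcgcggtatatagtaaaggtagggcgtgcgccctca
Atp1b3 (chr9:96364432-96364681, minus strand): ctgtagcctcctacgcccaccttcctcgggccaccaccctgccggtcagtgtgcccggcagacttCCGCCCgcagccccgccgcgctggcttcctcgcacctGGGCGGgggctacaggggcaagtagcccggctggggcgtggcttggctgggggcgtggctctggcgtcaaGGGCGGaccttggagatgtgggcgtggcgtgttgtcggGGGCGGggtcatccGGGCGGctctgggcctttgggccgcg
Fxyd4 (chr6:117937336-117937585, minus strand): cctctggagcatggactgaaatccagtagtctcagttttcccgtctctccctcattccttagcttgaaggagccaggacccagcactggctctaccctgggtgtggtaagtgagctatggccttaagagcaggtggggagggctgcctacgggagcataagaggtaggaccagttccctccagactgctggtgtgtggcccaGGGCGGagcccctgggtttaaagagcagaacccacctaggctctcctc
Kcnj16 (chr11:110967783-110968032, plus strand): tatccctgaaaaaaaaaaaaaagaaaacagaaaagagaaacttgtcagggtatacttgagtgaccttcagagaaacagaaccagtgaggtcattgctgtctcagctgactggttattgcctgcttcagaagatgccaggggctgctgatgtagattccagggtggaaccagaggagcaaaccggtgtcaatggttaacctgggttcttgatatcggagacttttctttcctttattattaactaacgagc
Fxyd5 (chr7:31042332-31042581, minus strand): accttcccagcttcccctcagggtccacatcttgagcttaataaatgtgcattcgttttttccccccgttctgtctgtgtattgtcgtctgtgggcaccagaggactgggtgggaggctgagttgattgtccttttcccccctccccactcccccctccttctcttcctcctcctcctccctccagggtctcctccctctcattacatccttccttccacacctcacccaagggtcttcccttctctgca
Kcnma1 (chr14:24004206-24004455, minus strand): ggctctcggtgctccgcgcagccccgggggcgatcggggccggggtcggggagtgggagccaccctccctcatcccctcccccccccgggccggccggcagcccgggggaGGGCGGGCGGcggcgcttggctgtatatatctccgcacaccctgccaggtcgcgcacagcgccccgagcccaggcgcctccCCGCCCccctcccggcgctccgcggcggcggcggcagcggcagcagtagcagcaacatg

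Of the 9 genes, 8 matched the promoter table, with 12 listed starts, while Fxyd2 had no entry there. GC content over the 300-base window, which runs to 50 bases past the start, was 71.0% for Atp1b1, 76.0% for Atp1b3 and 58.7% for Fxyd4. It was 44.3% for the first start of Kcnj16, 57.3% for Fxyd5 and 78.0% for Kcnma1, against a median of 52.7% over 32851 promoters. Starts with a peak close by thus spanned GC-rich and AT-rich sequence, and the GC-richest of these windows, that of Kcnma1, had no peak. The observed over expected ratio of CpG was 0.82 for Atp1b1, 0.79 for Atp1b3, 0.19 for Fxyd4, 0.20 for Kcnj16, 0.29 for Fxyd5 and 0.79 for Kcnma1, against a median of 0.38.

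The GC box was matched 2 times in the Atp1b1 window, 6 times in the first window of Atp1b3, of which 1 match lay after the start, and 1 time in that of Fxyd4. It was matched 3 times in the Kcnma1 window, where 2 of the matches overlap, and in no place for Fxyd5 or the first start of Kcnj16. Of all promoters, 35.7% held a GC box, and of those from genes whose start was called in all 4 lists, 64.5%. The CCAAT box was matched 2 times in the Atp1b1 window, 1 of them after the start, and in 37.4% of all promoters. The cyclic AMP response element TGACGTCA, held by 1.79% of all promoters, and its shorter core TGACGT, which lies inside it and was held by 7.51%, had no match in any of the 12 windows. The same was true of the AP-1 motif TGANTCA, held by 7.81%, and the Ets motif CCGGAAGT, held by 3.89%. The other motifs searched on both strands were the TATA box TATAAA, held by 13.6%, the glucocorticoid receptor element AGAACA, held by 6233 of the 32851, and the NFAT core TGGAAA, held by 21.4%. These were matched only at Kcnj1 and Kcnj10 (AGAACA), at the second start of Atp1b3 (TGGAAA) and at later starts of Kcnj16 (TATAAA and TGGAAA).

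The libraries had 27923780 and 31676748 immunoprecipitated tags for dDAVP, against 32705755 and 31283282 for vehicle, in experiments 1 and 2. Peaks covered 99.0 and 33.5 Mb of the genome in the dDAVP lists and 104 and 56.9 Mb in the vehicle lists, so the covered length with dDAVP was 0.951 of that with vehicle in experiment 1 and 0.590 in experiment 2. The shortfall of the dDAVP list of experiment 2 touches every comparison of covered bases given here. Its part in the results was not tested, though values with lists of equal length and as shares of each list's covered bases are given below. As to cell type, the starts of 7 of 10 principal cell genes and 4 of 4 epithelial genes were called in all 4 lists. Those of 1 of 5 intercalated cell genes (Atp6v1b1), 1 of 4 proximal tubule genes (Lrp2) and none of the genes of the thick ascending limb, distal convoluted tubule, fibroblasts, leukocytes or endothelium were. Over all protein-coding genes the share was 45.9%. A start called in 1 to 3 lists was found for 1 gene each of the thick ascending limb, distal convoluted tubule, fibroblasts and leukocytes, and for 2 principal cell genes. Of 2 endothelial genes, 1 held peaks in its window without a called start. Aqp4, a basolateral water channel of principal cells, had no called start. In a bulk library, fewer cells carrying the mark and less of it per cell cannot be told apart.

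A peak lay within 1 kb of the start in all 4 lists for 5 of the 9 genes, both beta subunit genes, Fxyd2, Fxyd4 and Kcnj16, against 45.9% of all protein-coding genes. For Fxyd2 both gene ends stood in for the start, since the tables give neither its strand nor its start. The start of Kcnj10 was called in 3 lists and that of Kcnj1 in 2. For Kcnj1 this was its only listed start, 21.6 kb inside the gene span, and the upstream end of the span was not counted as a start. Fxyd5 and Kcnma1 had no called start in any list, which was true of 45.2% of all genes, and no peak anywhere in the window, which was true of 32.8%. The remaining 7 genes held covered bases in all 4 lists. For 7 of these 7 both lists of experiment 1 covered more than both lists of experiment 2. The lists as wholes had the same order, with 99.0 and 104 Mb in experiment 1 against 33.5 and 56.9 Mb in experiment 2. The share of all genes with this order was not counted.

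Atp1b1 encodes the beta-1 subunit, the main partner of the catalytic subunit in kidney (chr1:164437099-164458355, minus strand). Peaks covered 20155 bp of its window with dDAVP against 17085 bp with vehicle in experiment 1, and 4646 bp with dDAVP against 6479 bp with vehicle in experiment 2. The experiments thus went opposite ways, and the difference of dDAVP minus vehicle averaged 618.5 ± 3467 bp (SD over the 2 experiments). Most of these bases belonged to 1 region over the start, chr1:164445564-164462315, of which 16629 and 4646 bp were covered in the dDAVP lists and 15685 and 6479 bp in the vehicle lists. That region also holds the start of Gm32391, a long non-coding RNA gene. A second region in the flank beyond the gene's other end, 3913 bp wide, was called in experiment 1 alone. It was covered over 3123 bp with dDAVP against 1400 bp with vehicle. A further 403 bp in that flank were called with dDAVP alone in experiment 1. Both lie inside the span of the neighbouring gene Nme7.

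Atp1b3 encodes the beta-3 subunit (chr9:96332655-96364431, minus strand). Its covered bases were 6297 bp with dDAVP against 5801 bp with vehicle in experiment 1, and 2691 bp with dDAVP against 3128 bp with vehicle in experiment 2. These were the smallest relative differences of the 7 genes in experiment 2, with a ratio of dDAVP to vehicle of 0.86, and in experiment 1 the ratio was 1.09. The region at its start, chr9:96361678-96366111, was the only one called in experiment 2. In experiment 1 a weak peak inside the gene was called with both treatments, and another with vehicle alone.

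**Figure D1:**
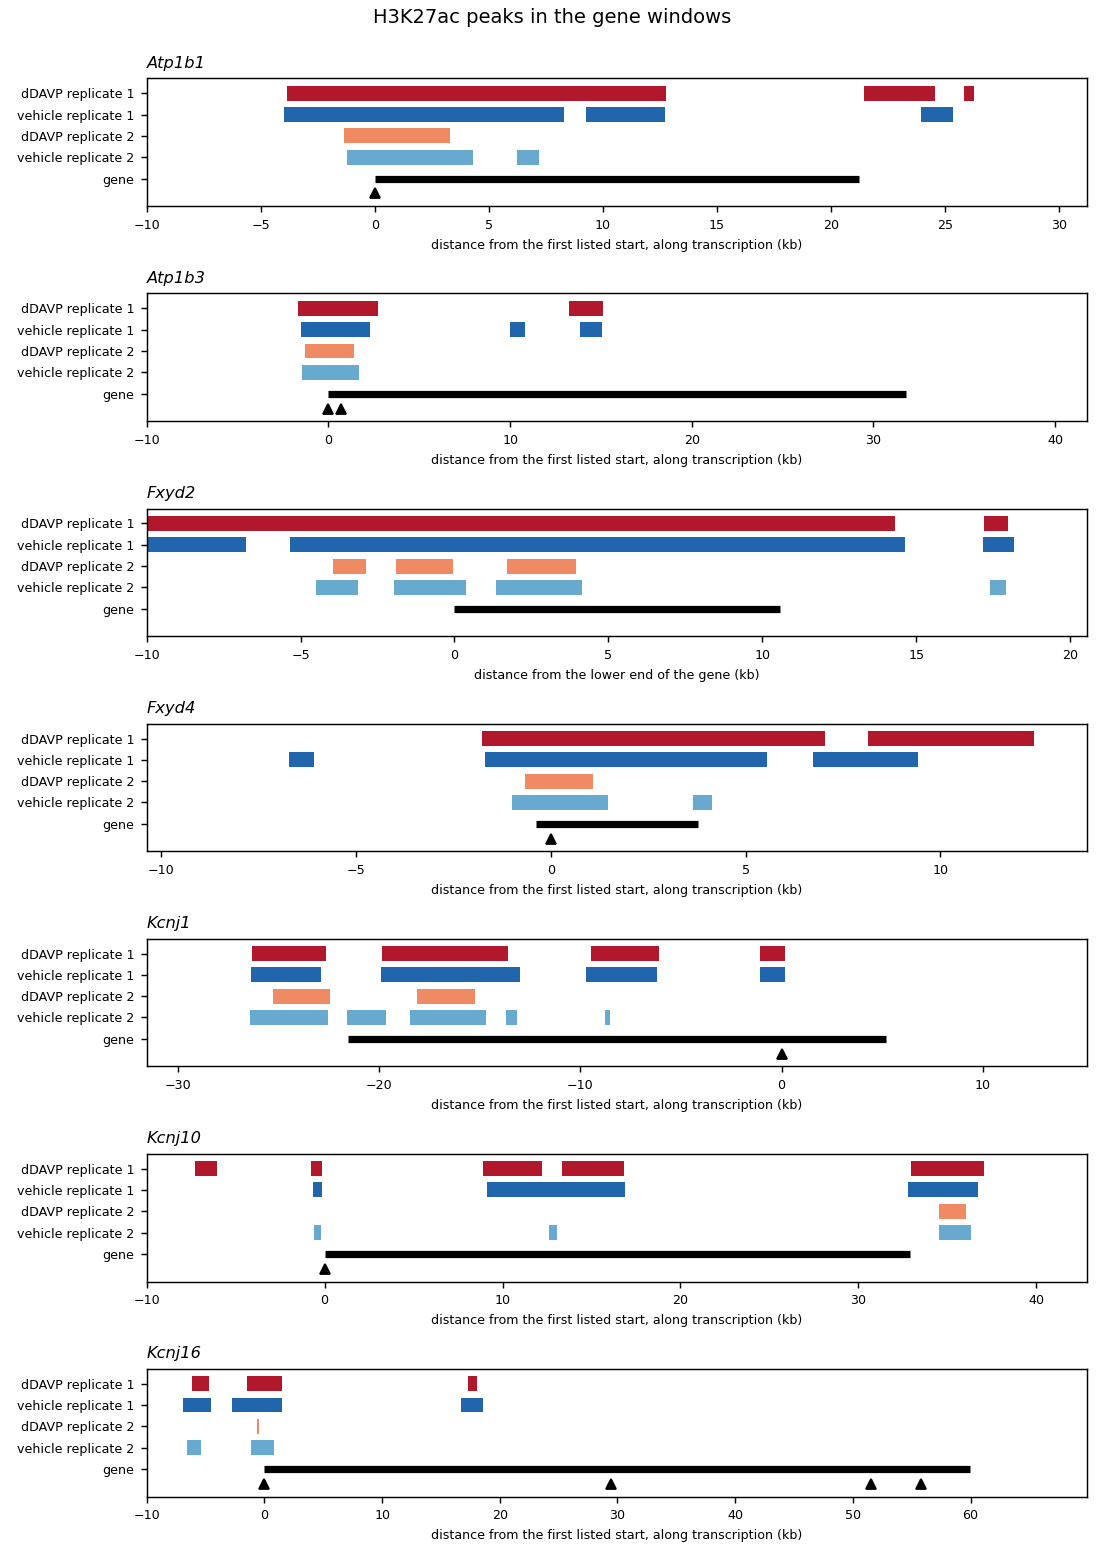
Extent of the called peaks (bars) in the windows of the 7 genes with peaks, 1 line per peak list with the dDAVP list above the vehicle list of the same experiment; the horizontal axis is the distance in kb from the first listed start along transcription or, for Fxyd2, from the lower end of the gene. Black bars are gene spans and triangles listed starts. Bars of experiment 1 cover more than those of experiment 2 in every panel, and the single Kcnj16 bar of dDAVP replicate 2 is 225 bp wide.

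Fxyd2 encodes the pump's gamma subunit (chr9:45399709-45410278). Peaks covered 25081 bp with dDAVP against 24218 bp with vehicle in experiment 1, the widest coverage of the 9 genes, and 5199 bp with dDAVP against 6992 bp with vehicle in experiment 2. With dDAVP in experiment 1 a single peak ran through the gene and over the end of the neighbouring gene Fxyd6, another member of the family. With vehicle this stretch was 2 peaks in experiment 1, and in experiment 2 it was 3 peaks with either treatment. The Fxyd6 start itself was not called in any list.

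Fxyd4 encodes a collecting duct FXYD protein, known in rat as corticosteroid hormone-induced factor (chr6:117933558-117937714, minus strand). Its window was covered over 13085 bp with dDAVP against 10565 bp with vehicle in experiment 1, and over 1747 bp with dDAVP against 2949 bp with vehicle in experiment 2. Again the experiments went opposite ways, and the ratios of 1.24 and 0.59 were the highest of the 7 genes in experiment 1 and equal to the median of these genes in experiment 2. Part of the window belongs to the end of Hnrnpf, a gene for an RNA-binding protein. Fxyd5 encodes dysadherin, a FXYD protein also known for effects on cell adhesion (chr7:31032723-31042331, minus strand). No peak was called in its window in any list, nor at the starts of its neighbours Fxyd7, Fxyd1, Gm38984 and Gm42377.

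Kcnj1 encodes the inward rectifier through which principal cells secrete potassium at the apical membrane (chr9:32372418-32399197, plus strand). Peaks covered 14565 bp with dDAVP against 15164 bp with vehicle in experiment 1, and 5638 bp with dDAVP against 10346 bp with vehicle in experiment 2. Fewer bases were covered with dDAVP in both experiments, with a mean difference of -2654 ± 2906 bp (SD over 2 experiments). In relative terms the difference of experiment 1, a ratio of 0.96, was much smaller than that of experiment 2, 0.54.

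The window of Kcnj1 held 4 regions, and the listed start, 21.6 kb inside the gene span, lay under the weakest of them. That region, chr9:32392899-32394173, was covered over 1259 bp with dDAVP against 1249 bp with vehicle in experiment 1 and was called in neither list of experiment 2. The merged region that reaches the upstream end of the span, chr9:32372399-32380968, was called in all 4 lists, over 6248 and 2852 bp with dDAVP and 6899 and 6238 bp with vehicle. Only a weak peak of the vehicle list of experiment 2, at 2.47-fold, reached that end. In the other lists its peaks began inside the gene, at 32374129 and 32375867 with dDAVP and at 32374070 with vehicle in experiment 1. That merged region also holds a start of the long non-coding RNA gene Gm31755. A further region upstream of the span was covered over 3676 and 2786 bp with dDAVP and 3507 and 3898 bp with vehicle, and 1 inside the gene was called in 3 lists, not in the dDAVP list of experiment 2.

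Kcnj10 encodes a basolateral inward rectifier of the distal nephron (chr1:172341210-172374085, plus strand). Its window was covered over 12763 bp with dDAVP against 12202 bp with vehicle in experiment 1, and over 1515 bp with dDAVP against 2596 bp with vehicle in experiment 2. The strongest region, chr1:172374009-172378253, overlaps the last bases of the gene and holds the near end of Pigm, a gene of glycolipid anchor synthesis. At the Kcnj10 start itself, a peak 143 bp upstream was 622 bp wide with dDAVP and 503 bp with vehicle in experiment 1. In experiment 2 it was absent from the dDAVP list and 378 bp wide in the vehicle list. Inside the gene a region was covered over 6824 and 0 bp with dDAVP and 7761 and 435 bp with vehicle, so in the dDAVP list of experiment 2 the region at Pigm was the only one of this window.

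Kcnj16 encodes the partner with which the Kcnj10 product forms basolateral channels (chr11:110968033-111027968, plus strand). Peaks covered 5183 bp of its window with dDAVP against 8533 bp with vehicle in experiment 1, and 225 bp with dDAVP against 3113 bp with vehicle in experiment 2. The difference of dDAVP minus vehicle was -3350 bp in experiment 1 and -2888 bp in experiment 2, a mean of -3119 ± 326.7 bp (SD over 2 experiments). The lists overlapped all the same, since the dDAVP list of experiment 1 covered more than the vehicle list of experiment 2. The mean difference was larger in size than its SD for Kcnj16 and smaller than its SD for Kcnj1. Where 2 experiments go opposite ways the SD always exceeds the mean, so the other 5 covered genes could not meet this. The share of all genes that meet it was not counted.

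Each of the 3 regions of Kcnj16 was narrower or absent with dDAVP in every experiment in which it was called. The region at the first of its 4 listed starts, chr11:110965297-110969521, was covered over 2959 and 225 bp with dDAVP and 4200 and 1940 bp with vehicle. The region 4497 bp upstream of this start was covered over 1480 and 0 bp with dDAVP and 2453 and 1173 bp with vehicle. The one inside the gene was called in experiment 1 alone, over 744 bp with dDAVP and 1880 bp with vehicle, and the other 3 starts had no peak. The 225 bp peak lay near the narrowest width in its list, 215 bp.

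Kcnma1 encodes the pore-forming subunit of the large-conductance, calcium-activated potassium channel, which carries flow-stimulated potassium secretion (chr14:23292288-24005110, minus strand). No peak of any list lay in its window of 733 kb. Among the 227 protein-coding genes of at least 500 kb, 98 (43.2%) likewise had no peak in the window.

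**Figure D2:**
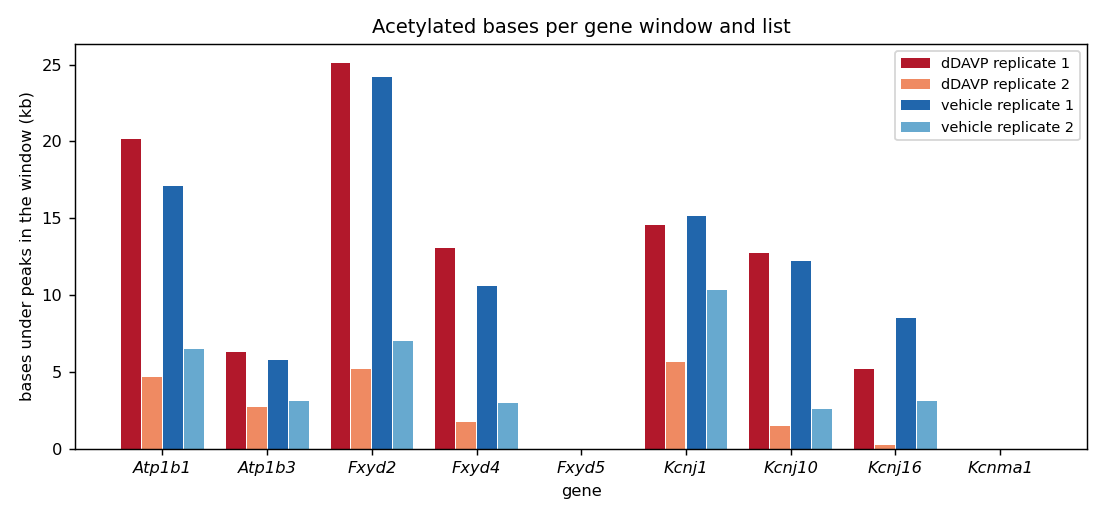
Bases under peaks (kb) in the window of each gene, 1 bar per peak list, with the dDAVP lists (red and orange) left of the vehicle lists (dark and light blue) and the experiment number as replicate number. Bars of replicate 2 are shorter than those of replicate 1 for the 7 genes with peaks, dDAVP bars are shorter than the vehicle bars of the same replicate number in both experiments for Kcnj1 and Kcnj16, and Fxyd5 and Kcnma1 have none.

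Of the 7 genes with covered bases, 2 had fewer with dDAVP in both experiments, Kcnj1 and Kcnj16. The share was 49.3% over the 14698 genes covered in at least 1 list. More in both was found for 0 of the 7, against 2.51%. In the other 5 covered genes the experiments went opposite ways, with more covered bases with dDAVP in experiment 1 and fewer in experiment 2. With flanks of 5 kb, Kcnj10 and Fxyd2 too had fewer with dDAVP in both experiments, and for Kcnj10 this was also so with flanks of 25 kb and with none. No window of the 9 genes held a region present in the dDAVP lists of both experiments but in neither list of vehicle, which 0.0777% of all genes had, or a region with the reverse pattern, which 3.31% had. The exact permutation test over the 4 lists, two-sided, gave p = 0.667 for Kcnj1 and Kcnj16 and 1.00 for the other 5 genes. The exact permutation test with labels exchanged within experiments gave p = 0.5 for Kcnj1 and Kcnj16 and 1.00 for the others. With 2 lists against 2 the smallest p these tests can reach is 0.333 and 0.5, so no gene could pass a usual threshold.

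The median ratio of dDAVP to vehicle over the 7 covered genes was 1.05 in experiment 1 and 0.59 in experiment 2, against 0.99 and 0.71 over the 12558 genes covered in all 4 lists. The ratios of Kcnj16, 0.61 and 0.07, lay outside the range of the other 6, which ran between 0.96 and 1.24 in experiment 1 and between 0.54 and 0.86 in experiment 2. Of the 13724 other genes covered in both vehicle lists, 311 (2.27%) had ratios as low as those of Kcnj16, or lower, in both experiments, a comparison chosen after its values were seen. All 311 had no covered base in at least 1 dDAVP list. For Kcnj1 the number of such genes was 2495 (18.2%). As a share of all bases covered in a list, 4 of the 7 genes had a larger share with dDAVP in both experiments (Atp1b1, Atp1b3, Fxyd2 and Fxyd4), against 37.3% of covered genes. By the same measure 1 gene, Kcnj16, had a smaller share in both, against 18.7%.

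**Figure D3:**
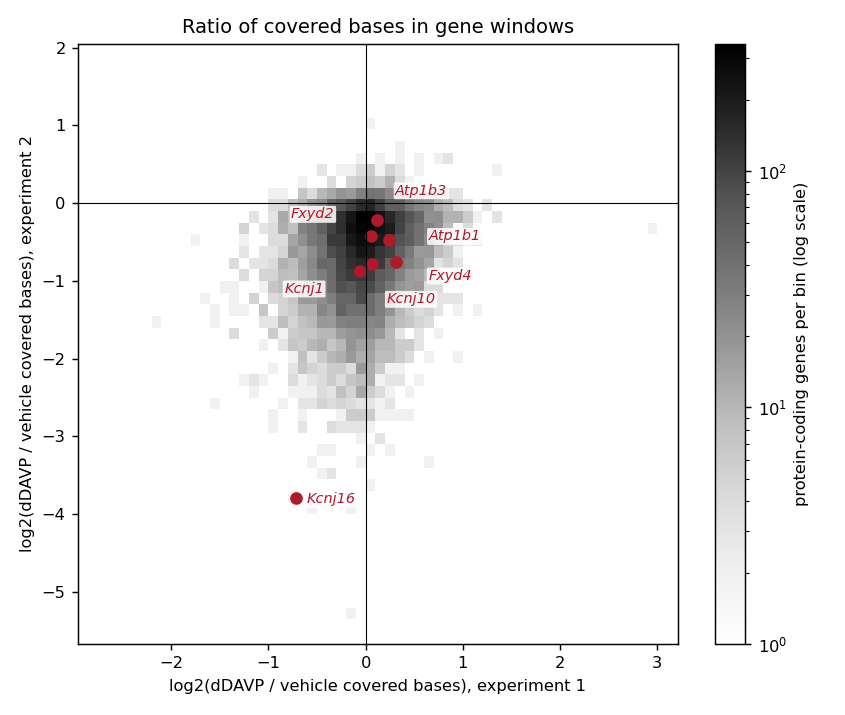
Ratio of covered bases, dDAVP over vehicle, in experiment 1 (horizontal) and experiment 2 (vertical), both on a log2 scale, for the 12558 genes covered in all 4 lists (grey bins, darker for more genes) and the 7 members with peaks (red). Genes with no covered base in a list are not drawn. Kcnj16 lies at the lower left edge of the cloud, and the other 6 members lie within it, below 0 on the vertical axis.

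Peak height was compared within a list, as the percentile of a gene's highest peak when all peaks of that list are ranked by fold enrichment over local background, the authors' own value. The lists held 37235 and 20124 peaks with dDAVP and 39745 and 29597 with vehicle, and since ranks in lists of unequal length are not on 1 scale, the percentiles describe a gene's place in each list and no change is read from them. Atp1b1 held the highest percentile of the 7 genes in all 4 lists, 90.6 and 90.9 with dDAVP and 87.3 and 93.4 with vehicle, with folds of 7.08 and 6.90 with dDAVP and 6.75 and 8.65 with vehicle. Atp1b3 was nearly level in every list, at 85.2 and 88.9 with dDAVP and 84.5 and 88.8 with vehicle. The Kcnj10 window also reached 84.9 and 85.1 with dDAVP and 86.9 and 88.0 with vehicle, through the peak shared with Pigm. Below Atp1b1 the order of Atp1b3, Kcnj10, Fxyd2 and Fxyd4 changed from list to list.

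Fxyd2 and Fxyd4 held unlike places in the lists of experiment 1 and experiment 2. Fxyd2 stood at percentiles 84.9 and 39.2 with dDAVP and 85.4 and 45.3 with vehicle. Fxyd4 stood at 89.7 and 35.0 with dDAVP and 86.2 and 50.1 with vehicle. Both were thus in the upper part of the ranking in experiment 1 and near or below its middle in experiment 2, whichever the treatment. The lists of experiment 2 are shorter, so here too no change is read. The share of all genes with such places was not counted.

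Kcnj1 was at percentiles 66.0 and 52.3 with dDAVP and 79.8 and 69.3 with vehicle. These places were lower in the dDAVP list, which is the shorter one, in both experiments. Kcnj16 was the lowest of the 7 genes in all 4 lists, at 57.7 and 18.7 with dDAVP and 62.3 and 44.1 with vehicle. In all, 4 of the 7 genes (Fxyd2, Kcnj1, Kcnj10 and Kcnj16) had a lower percentile with dDAVP in both experiments, against 47.3% of the genes covered in all 4 lists. A higher percentile in both was found for 1 gene, Atp1b3, against 9.07%.

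**Figure D4:**
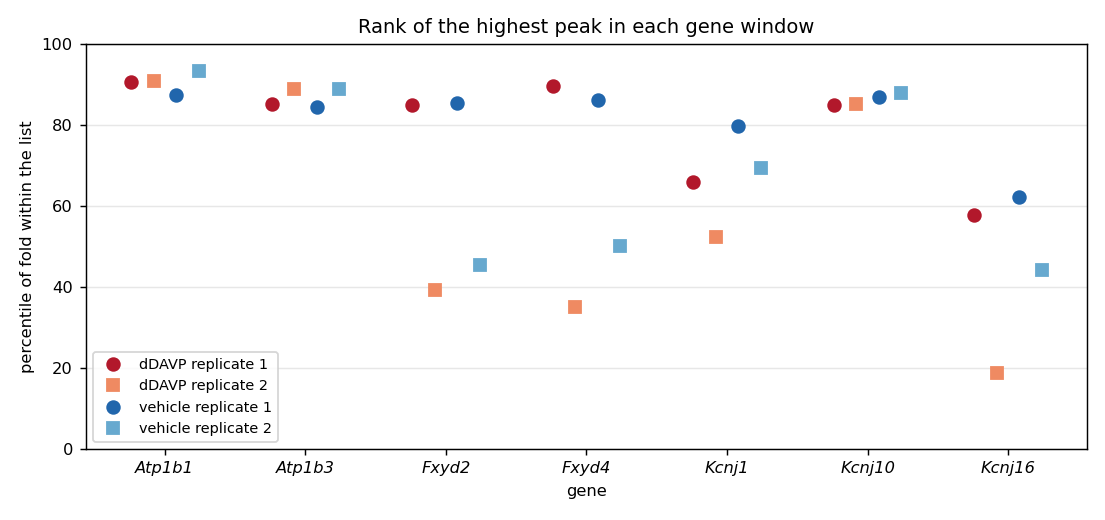
Percentile of the highest peak in each gene's window among all peaks of the same list, ranked by the authors' fold enrichment, 1 point per list, with dDAVP (red and orange) left of vehicle (blues), circles for experiment 1 and squares for experiment 2. The points of Atp1b1, Atp1b3 and Kcnj10 lie between 84.5 and 93.4, the squares of Fxyd2 and Fxyd4 lie far below their circles, and Kcnj16 has the lowest point of each list.

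The windows of the 7 covered genes held 21 merged regions, 7 at a start, 7 inside a gene and 7 in a flank. Of these, 8 (38.1%) were called in all 4 lists, against 36.2% of the 45705 merged regions of the genome, and 5 (23.8%) in 3 lists, against 13.4%. Another 4 were called in both lists of experiment 1 only, as were 7296 regions of the genome, and 4 in a single list, as were 14255. All 5 regions missing from 1 list were missing from the dDAVP list of experiment 2, the list with the least covered length. Of the 6129 such regions in the genome, 94.1% were missing from that same list.

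Other genes of the same pathways were read from lists of 53 genes, of which 13 (24.5%) had a called start in all 4 lists, against 45.9% of all genes, and 35 in none, against 45.2% of all genes. Among other potassium channel genes described in kidney, 4 of 22 starts (18.2%) were called in all lists. These were Kcnq1, a voltage-gated channel, and Kcnk1, Kcnk5 and Kcnk10, which belong to the tandem-pore family. None of 3 related cation pump genes had such a start. Among auxiliary subunits of the large-conductance channel, 1 of 6 did, Lrrc26, while the start of Kcnma1 itself had no call. Of 12 genes for kinases and ligases that act on pump and channels, 7 (58.3%) did, among them Sgk1, an aldosterone-induced kinase, and Wnk1 and Wnk4, kinases that act on distal salt transport. Of the 31 genes of these lists with covered bases, 11 had fewer with dDAVP in both experiments, against 49.3% of all covered genes, and 0 had more, against 2.51%. No start of the 53 genes was called in both lists of 1 treatment and in neither of the other, and the share of all genes with such a start was not counted.

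**Figure D5:**
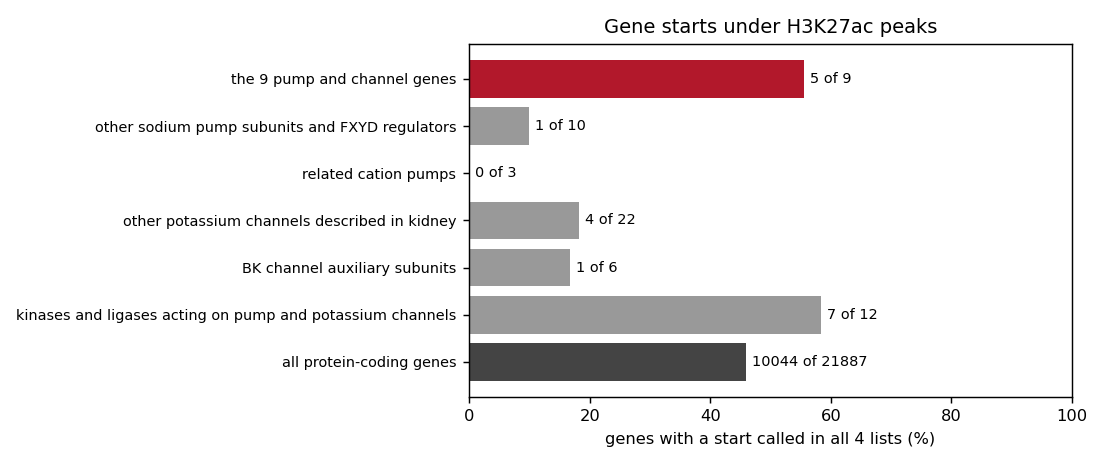
Share of genes (%) whose start lay within 1 kb of a peak in all 4 lists, for the 9 pump and channel genes (red), the lists of other pathway genes (light grey) and all protein-coding genes (dark grey), with counts beside the bars. The 9 genes stand at 5 of 9, the kinases and ligases at 7 of 12, the other lists between 0 of 3 and 4 of 22, and all genes at 10044 of 21887.

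By percentile over the 4 lists, the gene of these lists most like Fxyd2 was Fxyd6, with a Euclidean distance of 0 percentile points, because both windows hold the same highest peak. Fxyd6 was also the closest to Fxyd4, at 8.05 points. The closest to Kcnj10 was Nedd4l, a ubiquitin ligase gene, at 6.39 points, and to Kcnj16 it was Atp12a, which encodes a potassium-transporting pump, at 14.3 points. The starts of Fxyd6, Nedd4l and Atp12a were not called in any list, so the likeness is of peaks elsewhere in their windows.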

How the data were processed

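H3K27ac ChIP-seq was read from 4 deposited peak lists, each from 1 library. The authors ran MACS 2.1.1.20160309, per the file headers, with its broad option and with the matching input as control, at q-value limits of 0.01 for strong and 0.1 for broad regions, with at most 1 tag of 50 bp per position and the larger data set scaled to the smaller. Replicates were not pooled. The submitters' processing notes name BWA, SAMtools and build mm10. In the deposited lists the pileup column is a signal (tag coverage), the fold enrichment is the authors' ratio to local background, and 2 columns whose names were lost hold values of the size and order of the caller's −log10 p-value and −log10 q-value. Fold and q were used only to rank or filter peaks within a list. The lists hang on the input records and were assigned to the immunoprecipitated libraries from their names and headers. Peak names in both lists of experiment 2 carry the number 3.

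Covered bases of a gene window are its bases under peaks of a list. A start was called when a peak overlapped, by at least 1 bp, 1 kb on either side of a listed RefSeq start, or of either gene end where none is listed. Regions are merged peaks of the 4 lists. Peaks off the 19 autosomes, X and Y were left out, and reads per region were not used. The lists were paired by the experiment number in their labels. Deviations from the treatment means correlated at 0.95 over 14698 genes. Both lists of experiment 1 cover far more of the genome than both of experiment 2, so this value cannot show whether the lists are paired. The labels do not say whether experiments were separate cultures, so the spread between these lists may be technical. The p-values only place the observed difference among those from exchanged labels of these 4 lists, and do not measure that spread. The 9 genes, the gene lists and the tests were chosen with earlier results of these data known. All 9 genes were described, and other genes were named when their start was called in all lists, when they lay in a window or when their percentiles were the closest. The results of some genes of the lists are not reported here, though counts include them. Windows, thresholds, list lengths and left-out lists were varied. The scripts, in Python 3.11.15 with pandas 2.3.3, NumPy 2.4.6 and matplotlib 3.10.9, were tested on simulated peaks.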

Additional observations from a re-analysis of the deposited data

How the results depend on the processing

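The count of 5 genes with a start called in all 4 lists became 2 (Atp1b1 and Atp1b3) with peaks of −log10 q of at least 5, 2 with peaks of at least 5-fold and 3 when a peak had to fill 50% of the window around the start, and it ran between 5 and 6 with 1 list left out at a time. The count of 2 genes with fewer covered bases with dDAVP in both experiments became 4 (with Kcnj10 and Fxyd2) with flanks of 5 kb, 1 at the stricter q, 0 at 5-fold and 1 as a share of each list's covered bases. With 1 list left out, which leaves 1 list in an arm and no test, it ran between 2 and 7. The count of 0 genes with more became 4 as a share of the list, and ran between 0 and 5 with 1 list left out. The count of 0 genes with a region called in 1 treatment only ran between 1 and 4 with 1 list left out. The cause of these shifts was not tested.

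The mean difference of dDAVP minus vehicle in covered bases kept its sign for Kcnj1 and Kcnj16 wherever there was a value. With all lists in, 5 alternatives moved the value of each, over -3449.5 to -1259.5 bp for Kcnj1 and -2532.5 to -957.0 bp for Kcnj16, and 4 and 3 left it as it was. At 5-fold no Kcnj16 peak was left, and the Kcnj1 value, -3449.5 bp, rested on 1 peak of 6899 bp in the vehicle list of experiment 1. At the stricter q the Kcnj16 value likewise rested on 1 peak of 4200 bp in that list. In these settings the other lists held no covered base of the gene, so experiment 2 had no part in the sign. With lists cut to 20124 peaks each, Kcnj16 covered 4439 and 225 bp with dDAVP and 6653 and 1940 bp with vehicle. Of 90 such values over the 7 genes, 21 turned. Fxyd4 went to -511.5 bp with 5 kb flanks, -393.0 bp with 25 kb, -264.0 bp without flanks and -116.5 bp over peaks nearest the gene. Atp1b1 went to -437.0 bp without flanks and -444.5 bp over the nearest peaks. Fxyd2 went to 431.5 bp at the stricter q, 2153.0 bp at 5-fold and 1286.5 bp over the nearest peaks. Kcnj10, at -260.0 bp, went to -888.0 bp with 5 kb flanks, -958.0 bp with 25 kb and -724.5 bp without flanks. In each of these, fewer bases were covered with dDAVP in both experiments. It went to 3399.0 bp with lists of equal length and 146.5 bp with equal length within experiments. Over the nearest peaks it went to -2784.5 bp, a value that depends on how the peak at Pigm was assigned. In experiment 1 the vehicle peak there, 3938 bp wide, overlaps the end of Kcnj10 and was counted. The dDAVP peak, 4061 bp wide, begins beyond that end and was not. This left 7446 bp with dDAVP against 12202 bp with vehicle. With 1 list left out, which leaves the difference of 1 experiment, the value ran between -1833.0 and 3070.0 bp for Atp1b1, -437.0 and 496.0 bp for Atp1b3, -1793.0 and 863.0 bp for Fxyd2, -1202.0 and 2520.0 bp for Fxyd4, and -1081.0 and 561.0 bp for Kcnj10. With the replicate block, which pairs lists by experiment, the differences were the same (-3119.0 bp for Kcnj16 and -2653.5 bp for Kcnj1, p = 0.5 each in the exact permutation test). That p is the smallest the test can reach with 2 experiments, so no call could change. The nearest-peak and share-of-list settings were added after the data were seen. Depth was known per library but not per window, and a missing peak shows only that none was called.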
